A study of Mus musculus with 10 samples.

Results

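In plasma cells of mouse bone marrow, 10 chaperone and quality-control genes of the endoplasmic reticulum (ER) are described: Hspa5, Hsp90b1, Calr, Hyou1, Dnajb11, Sdf2l1, Manf, Creld2, Herpud1 and Dnajc3. They are genes known to answer to the transcription factor ATF6, and all 10 were found among the 22180 genes that had a probe set with 1 gene symbol. Each had 1 such probe set. They were chosen by name, with the log2 differences between rapamycin and untreated mice in these same arrays already known. Those differences are therefore given for the members as a description, and no test result on a member is read as evidence. The name of the set rests on earlier knowledge of the genes, since the arrays measured transcripts and not the activity of ATF6.

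Transcripts were measured on 10 Affymetrix arrays. The group given rapamycin, an inhibitor of mTOR complex 1, held 5 mice, and the untreated group held 5 mice. All mice of both groups were B6.BLIMP1 +/GFP, heterozygous for a GFP reporter at Blimp1 (Prdm1), the regulator that turns B cells into plasma cells, and no group without the reporter was measured. The cells were sorted from marrow as B220-negative and Blimp1-positive, so each value is an average over all cells that the sort let through. Neither dose, length of treatment, age nor sex was stated in the labels used.

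Plasma cells fill the ER with antibody chains and keep a large store of chaperones there. When unfolded chains accumulate, ATF6 leaves the ER for the Golgi, where the proteases encoded by Mbtps1 and Mbtps2 cut it, and its freed fragment enters the nucleus. Together with the factor NF-Y it binds the ER stress response element (ERSE), a CCAAT box and a CCACG box set a fixed distance apart, and raises transcription of chaperone genes. Hspa5 encodes BiP, the HSP70 of the ER, which was first described as a protein bound to antibody heavy chains.

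The elements are shown first because ATF6 acts through them. The genes were picked as known ATF6 targets, so how often the elements occur among them is a description and not evidence independent of that choice. RefSeq promoter windows of build GRCm38.p6, each running from 250 bases before to 50 bases after the start of a gene, were at hand for 8 of the 10 genes. The ERSE was searched as CCAAT and CCACG with 9 bases of any kind between them, and its compact form, ERSE-II, as ATTGG and CCACG with 1 base between them, on both strands, and the 2 forms did not overlap in any of the 8 windows. The ERSE was present in 5 of the 8 members, Hspa5, Hsp90b1, Calr, Creld2 and Dnajc3, and in 39 of 32851 windows of all genes (0.119%). ERSE-II was present in Herpud1 and Dnajb11, and in 12 of the 32851 windows (0.0365%). Sdf2l1 held neither form, and with 1 mismatch allowed in the fixed letters the ERSE was found in 6 of the 8 members, Herpud1 being the added one, and in 494 of all windows. Every member sequence is given below 5′ to 3′ on the strand that carries the element, with the fixed letters in capitals and the spacer in lower case.
Hspa5, chr2:34772025-34772043, plus strand: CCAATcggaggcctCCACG
Calr, chr8:84847075-84847093, plus strand: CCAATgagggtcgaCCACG
Hsp90b1 distal, chr10:86705638-86705656, minus strand: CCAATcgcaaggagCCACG
Hsp90b1 proximal, chr10:86705533-86705551, plus strand: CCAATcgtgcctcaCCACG
Dnajc3, chr14:118937827-118937845, plus strand: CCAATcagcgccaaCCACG
Creld2, chr15:88819520-88819538, minus strand: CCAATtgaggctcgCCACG
Herpud1 ERSE-II, chr8:94386377-94386387, plus strand: ATTGGgCCACG
Dnajb11 ERSE-II, chr16:22857852-22857862, plus strand: ATTGGcCCACG

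The spacers differed between the 6 sites and held 6 or 7 G or C letters each. Counting the base just before the start as position -1, the Hspa5 element ran from -65 to -47, the closest of the 6 sites to a start. The distal Hsp90b1 element ran from -212 to -194 and the proximal one, on the other strand, from -107 to -89. The Calr element ran from -162 to -144, that of Creld2 from -126 to -108 and that of Dnajc3 from -105 to -87. ERSE-II of Herpud1 ran from -52 to -42, and that of Dnajb11 lay inside the gene, at bases 8 to 18. The stretch of 150 bases just before the start of Hspa5 is printed because it is the promoter of the gene with the largest difference, with the boxes of the ERSE in capitals.
Hspa5, chr2:34771940-34772089, plus strand: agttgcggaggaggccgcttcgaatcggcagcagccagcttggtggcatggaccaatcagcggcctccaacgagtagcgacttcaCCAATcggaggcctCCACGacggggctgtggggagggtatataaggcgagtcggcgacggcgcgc
A match to these letters is a description of the sequence and was not shown to be bound or used in these cells.

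**Figure D1:**
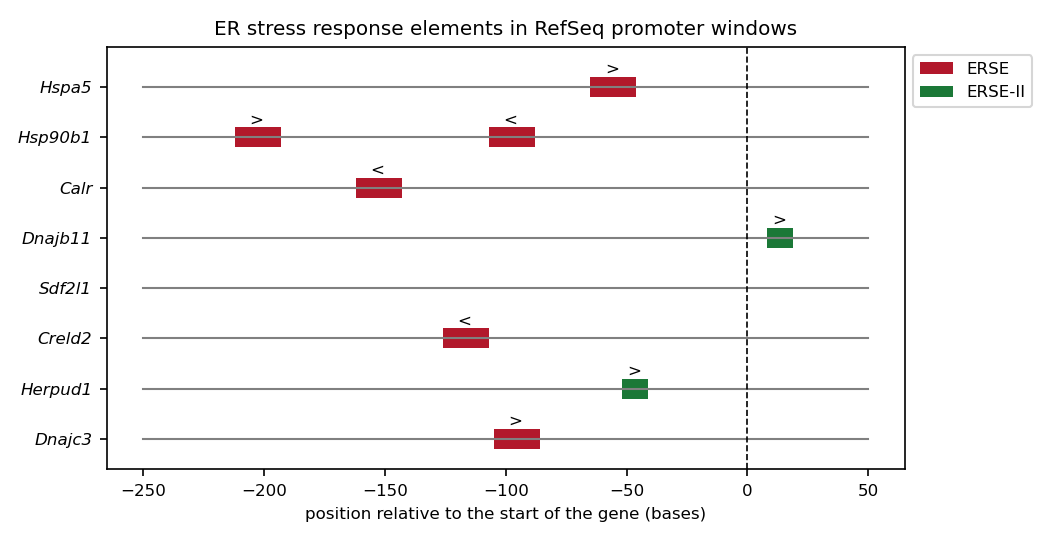
Positions of exact ERSE (red) and ERSE-II (green) matches in the promoter windows of 8 members, in bases from the start of the gene (dashed line); arrowheads give the strand relative to the gene. The ERSE was found in 5 of the 8 genes, ERSE-II in 2, and neither in Sdf2l1.

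Values below are log2 signals made with RMA, so that a difference of 1 is a doubling. Medians of the arrays lay between 4.92 and 4.99, and all 10 members averaged above the median gene, 5.18. Rapamycin replicate 4 stood apart from the other arrays, at 22.3 on the first principal component, where its group otherwise lay at 4.17 to 8.85 and the untreated group at -15.4 to -1.16, and where leaving it out moved the difference of a member or a named list gene by over 1.5 times, the value without it is given too. Xist was at 8.87 to 9.62 in the rapamycin arrays and 3.75 to 4.00 in the untreated arrays, while the Y-linked Eif2s3y was at 3.58 to 4.06 in the rapamycin arrays and 7.41 to 8.68 in the untreated arrays. In every difference given here, rapamycin and sex therefore cannot be told apart. Across all genes, limma called 28 higher and 6 lower with rapamycin at an adjusted p under 0.05, and 19 higher and 4 lower without rapamycin replicate 4.

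Hspa5 was lower on every rapamycin array than on any untreated array. Its signal was 10.89, 10.89, 10.85, 10.34 and 10.92 in rapamycin replicates 1 to 5, against 11.43, 11.57, 11.37, 11.65 and 11.42 in untreated replicates 1 to 5. The groups were separated by a gap, and replicate 4 was low even for the rapamycin group, whose other arrays lay within 0.07 of each other. The means were 10.78 ± 0.25 with rapamycin and 11.49 ± 0.12 untreated (SD, n = 5 each), a log2 difference of -0.71 (SE 0.10), or 38.7% less signal. Without rapamycin replicate 4 the difference was -0.60. Among all 22180 genes, 13 had a more negative difference, including the Y-linked Eif2s3y (-4.19), Kdm5d (-2.86) and Uty (-2.48). In these sorted cells, fewer cells rich in a transcript and less of it per cell cannot be told apart.

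The other 9 members had smaller differences, all below 0, between -0.26 for Calr and -0.01 for Manf. That of Manf was above 0 when an array was left out, at 0.029 without rapamycin replicate 1, 0.0045 without untreated replicate 4 and 0.0065 without untreated replicate 5. The median over the 10 members was -0.13, beside 0.0087 over all genes, of which 46.9% had a difference below 0. Without rapamycin replicate 4 all 10 stayed below 0, with a median of -0.12. Hspa5 was the 1 member called lower and 0 were called higher, beside 0.0271% of all genes called lower; since the set was drawn up with this contrast known, nothing is read from that count. The groups did not overlap, with rapamycin lower, for 3 members, Hspa5, Calr and Herpud1, beside 0.586% of all genes with rapamycin lower and 2.06% in either direction.

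**Figure D2:**
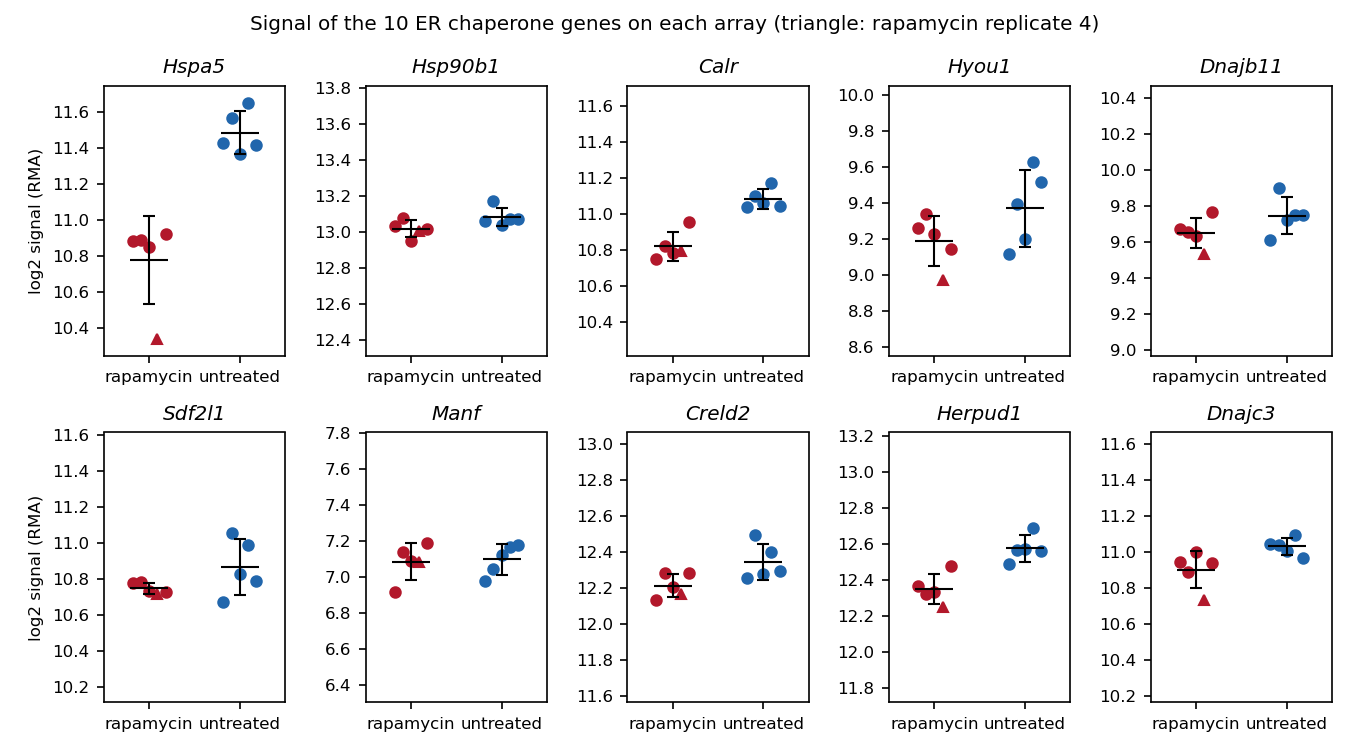
Log2 signal of each member on each array, with rapamycin (red) left of untreated (blue); every panel spans 1.5 log2 units, the horizontal bars are group means and the error bars SD (n = 5 each), and the triangle is rapamycin replicate 4. Only for Hspa5, Calr and Herpud1 do the groups not overlap.

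Hsp90b1 encodes GRP94, the HSP90 of the ER, and Calr encodes calreticulin, a calcium-binding lectin chaperone that holds glycoproteins until they are folded. Hsp90b1 signal was 13.04, 13.08, 12.95, 13.00 and 13.02 in rapamycin replicates 1 to 5, against 13.06, 13.17, 13.04, 13.07 and 13.07 in untreated replicates 1 to 5. All but 1 rapamycin array, replicate 2, lay below every untreated array, and the log2 difference was -0.07 (SE 0.04), or -0.043 without untreated replicate 2, its highest array. Calr signal was 10.75, 10.82, 10.78, 10.79 and 10.95 in rapamycin replicates 1 to 5, against 11.04, 11.10, 11.06, 11.17 and 11.04 in untreated replicates 1 to 5. The groups did not overlap, with a log2 difference of -0.26 (SE 0.06), and rapamycin replicate 4 lay among the others of its group, so that the difference was -0.26 without it as well.

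The next genes encode partners of BiP. Hyou1 encodes GRP170, which exchanges the nucleotide of BiP, and its signal was 9.26, 9.34, 9.23, 8.97 and 9.14 in rapamycin replicates 1 to 5, against 9.12, 9.39, 9.20, 9.63 and 9.51 in untreated replicates 1 to 5. It spread most of the 10 among untreated mice (SD 0.21), the groups overlapped, and the log2 difference was -0.18 (SE 0.10), or -0.13 without rapamycin replicate 4 and -0.12 without untreated replicate 4. Dnajb11 encodes ERdj3, a J protein that hands substrates to BiP, with signals of 9.67, 9.66, 9.63, 9.53 and 9.76 in rapamycin replicates 1 to 5, against 9.61, 9.90, 9.72, 9.75 and 9.75 in untreated replicates 1 to 5. Its groups overlapped too, and the log2 difference of -0.09 (SE 0.07) became -0.06 without rapamycin replicate 4 and -0.055 without untreated replicate 2.

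Dnajc3 encodes a second J protein, p58IPK, which is also known to restrain the kinase PERK. Its signal was 10.94, 10.89, 11.00, 10.73 and 10.94 in rapamycin replicates 1 to 5, against 11.04, 11.04, 11.01, 11.09 and 10.97 in untreated replicates 1 to 5. Of the rapamycin arrays 4 lay below every untreated array, with a log2 difference of -0.13 (SE 0.06), or -0.09 without rapamycin replicate 4, the lowest of all arrays. Sdf2l1 encodes a soluble ER protein that works with ERdj3, and its signal was 10.78, 10.78, 10.73, 10.71 and 10.73 in rapamycin replicates 1 to 5, against 10.67, 11.06, 10.82, 10.99 and 10.78 in untreated replicates 1 to 5. It varied little among rapamycin mice, with an SD of 0.03 beside 0.16 in untreated mice, and untreated replicate 1 was the lowest of all arrays. Its log2 difference was -0.12 (SE 0.07), or -0.071 without untreated replicate 2, its highest array.

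Manf and Creld2 encode small ER proteins that cells secrete under ER stress, and Manf binds BiP. Manf signal was 6.92, 7.14, 7.09, 7.09 and 7.19 in rapamycin replicates 1 to 5, against 6.98, 7.04, 7.12, 7.17 and 7.18 in untreated replicates 1 to 5. The groups covered nearly the same range, with a log2 difference of -0.01 (SE 0.09) whose sign depended on which array was left out. Creld2 signal was 12.13, 12.28, 12.20, 12.17 and 12.28 in rapamycin replicates 1 to 5, against 12.26, 12.49, 12.28, 12.40 and 12.30 in untreated replicates 1 to 5. Of the rapamycin arrays 3 lay below every untreated array and the log2 difference was -0.13 (SE 0.05).

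Herpud1 encodes a membrane protein of the ER that assembles the machinery which exports misfolded proteins for degradation. Its signal was 12.37, 12.33, 12.33, 12.25 and 12.48 in rapamycin replicates 1 to 5, against 12.49, 12.57, 12.57, 12.69 and 12.56 in untreated replicates 1 to 5. The groups came close, at 12.48 in rapamycin replicate 5 and 12.49 in untreated replicate 1, without overlapping, and the log2 difference was -0.23 (SE 0.05), or -0.20 without rapamycin replicate 4.

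The gap between Hspa5 and the other members was smaller on the rapamycin arrays. Taken within each array, Hspa5 minus the mean of the other 9 members was 0.24, 0.19, 0.19, -0.24 and 0.20 in rapamycin replicates 1 to 5, against 0.73, 0.71, 0.61, 0.76 and 0.62 in untreated replicates 1 to 5. Only the change of this value between arrays can be read, since probe sets differ in brightness. The groups did not overlap, and the difference between their means was -0.57 (-0.48 without rapamycin replicate 4), made up of -0.71 for Hspa5 and -0.14 for the mean of the other 9. The contrast that chose the genes enters this value, so no test is given.

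**Figure D3:**
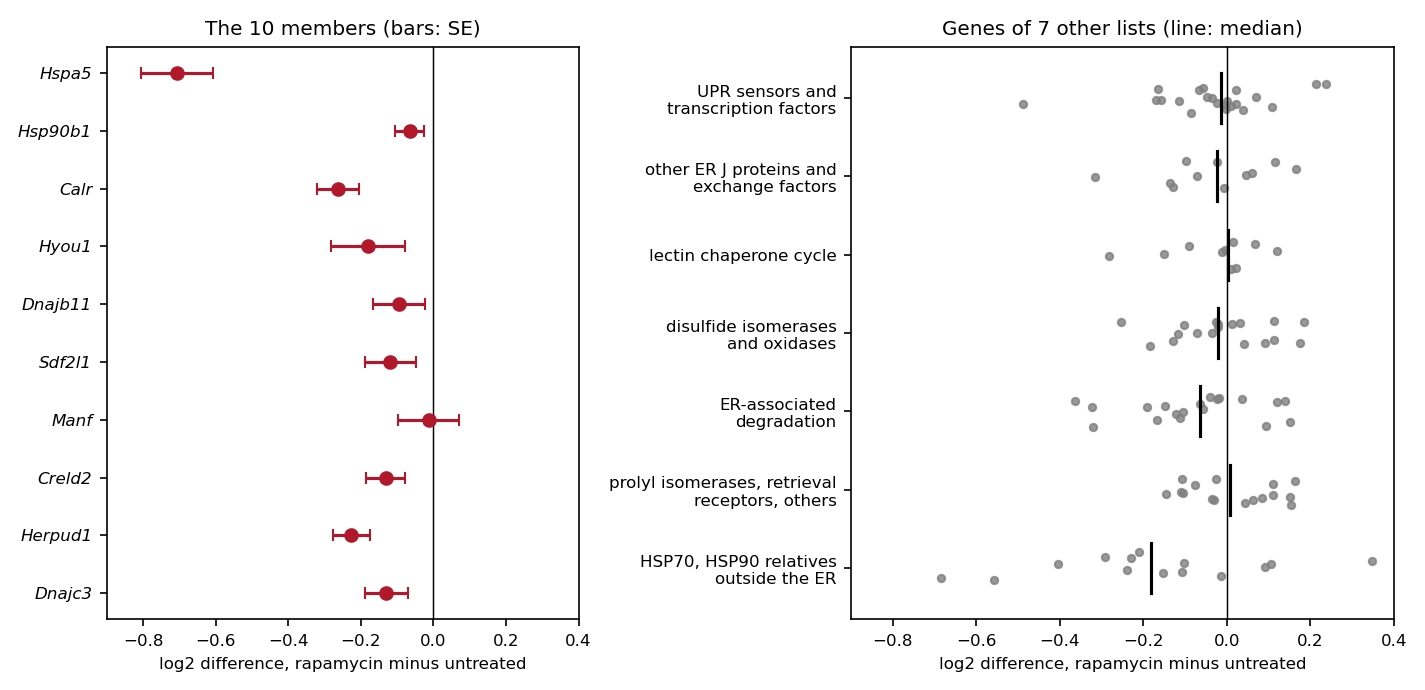
Log2 difference, rapamycin minus untreated, of the 10 members (left, bars are standard errors from limma) and of each gene on 7 other lists (right, black lines are list medians). Hspa5 is at -0.71, the other members are between -0.26 and -0.01, the medians of the 6 ER lists are between -0.06 and 0.01 with single genes from -0.49 to 0.24, and the median of the HSP70 and HSP90 relatives is -0.18.

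The rest of the ER folding and stress machinery, 96 other genes on 6 lists, was not called by limma in either direction, beside 0.153% of all genes called. Calls were so rare that their absence on a list of this size or smaller does not show that its genes were unchanged. Unadjusted limma p-values under 0.05 were found for 5 genes with a higher and 10 with a lower signal, beside 6.13% and 3.26% of all genes in those directions, and the smallest adjusted p in limma was 0.145. The median log2 difference of the 96 genes was -0.02, and 58 of them had a difference below 0. In the authors' filtered table, with fewer genes tested, 1 of them, Ddit3, was called lower (adjusted p = 0.0387 in limma).

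None of the 22 regulators of the response passed the test in limma. Atf6 was at 11.35 ± 0.15 with rapamycin and 11.39 ± 0.10 untreated (SD, n = 5 each), a log2 difference of -0.03 that turned to 0.019 without rapamycin replicate 4. Its relative Atf6b differed by 0.21 and Mbtps2, the second of the proteases that cut ATF6, by 0.24, both upward. Xbp1, the transcription factor that plasma cells need to build their ER, differed by 0.02 (0.033 without rapamycin replicate 4) and its activator Ern1 (IRE1) by -0.16 (-0.10 without it), while Eif2ak3 (PERK), the kinase that slows translation, differed by -0.11. Downstream of PERK, Atf4 differed by -0.16 with groups that did not overlap, and Ddit3, the stress factor CHOP, was at 9.22 ± 0.22 with rapamycin and 9.71 ± 0.25 untreated (log2 difference -0.49, SE 0.12, adjusted p = 0.145 in limma). On this list unadjusted limma p-values under 0.05 were found for 0 genes with a higher and 2 with a lower signal, and the median log2 difference was -0.01.

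Among 11 other J proteins and exchange factors of the ER, 0 passed in limma, and an unadjusted p under 0.05 was found for 0 with a higher and 1 with a lower signal. That gene was Dnajb9 (ERdj4), a J protein that restrains IRE1, at 11.65 ± 0.23 with rapamycin and 11.97 ± 0.13 untreated (log2 difference -0.32, SE 0.09, adjusted p = 0.229 in limma). Dnajc1 differed by 0.17, Dnajc16 by -0.14 and Dnajc18 by -0.13, the last by -0.22 without rapamycin replicate 4. The lectin chaperone cycle, to which Calr belongs, had 0 of 10 genes past the test, and an unadjusted p under 0.05 for 0 with a higher and 1 with a lower signal. Prkcsh, the regulatory subunit of glucosidase II, differed by -0.28, its catalytic subunit Ganab by -0.15, the testis calnexin Clgn by 0.12 and the cargo receptor Lman1 by 0.07. Without rapamycin replicate 4, Prkcsh differed by -0.17 and Ganab by -0.041.

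Of 18 disulfide isomerases and oxidases 0 passed in limma, and an unadjusted p under 0.05 was found for 1 with a higher and 0 with a lower signal. Prdx4, a peroxidase that makes disulfides, differed by 0.18, P4hb, the main disulfide isomerase, by -0.13, and the membrane isomerases Tmx4 and Tmx3 by -0.25 and -0.18, with -0.17 for Tmx4 without rapamycin replicate 4. Of 19 genes of ER-associated degradation, where Herpud1 acts, 0 passed in limma, and an unadjusted p under 0.05 was found for 2 with a higher and 6 with a lower signal. Syvn1, the ubiquitin ligase of this pathway, differed by -0.32 (SE 0.09, adjusted p = 0.212 in limma) and its partner Sel1l by -0.32 (SE 0.10, adjusted p = 0.248). Derl1, a subunit of the export channel, differed by -0.17 with groups that did not overlap, and Edem2, which trims glycans, by 0.14.

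Prolyl isomerases, retrieval receptors and other ER folding factors had 0 of 16 genes past the test in limma, and an unadjusted p under 0.05 for 2 with a higher and 0 with a lower signal. These were Tmed10, a cargo receptor of early secretory transport, with a log2 difference of 0.15, and Mzb1, a plasma cell partner of GRP94, with 0.11, both with groups that did not overlap. The dimmer probe sets of Tmed10 differed by 0.36 and 0.01. Fkbp2, a prolyl isomerase, differed by 0.16 (0.11 without rapamycin replicate 4) and Sec61a1, the channel through which new chains enter the ER, by -0.11.

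Of 14 relatives of BiP and GRP94 outside the ER, 11 had a log2 difference below 0 and 0 passed in limma. An unadjusted p under 0.05 was found for 1 with a higher and 6 with a lower signal, and the median log2 difference was -0.18. Hsph1, a nucleotide exchange factor of cytosolic HSP70, was at 7.95 ± 0.31 with rapamycin and 8.63 ± 0.42 untreated (log2 difference -0.69, SE 0.18, adjusted p = 0.167 in limma), and in the filtered table it was called lower (adjusted p = 0.017). Hspa8, the constitutive cytosolic HSP70, differed by -0.29, and its 3 dimmer probe sets by -0.27, -0.30 and -0.19. The heat-inducible Hspa1a and Hspa1b, whose probes can be shared, differed by -0.56 and -0.40. Both were dim, near the median gene of 5.18. Hspa1a was at 4.52 ± 0.54 with rapamycin and 5.07 ± 0.34 untreated, and Hspa1b at 4.98 ± 0.21 and 5.39 ± 0.36. The mitochondrial members of the families, Hspa9 and Trap1, differed by 0.11 and -0.01, and Trap1 by 0.09 without rapamycin replicate 4.

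Genes with an ERSE that are not members had differences in both directions. Outside the members, 24 measured genes had an exact ERSE, and 10 of these were above the median level. Of the 24 genes 0 were called by limma, and their median log2 difference was 0.0094. An unadjusted limma p under 0.05 was found for 4, all with a lower signal, beside 3.26% of all genes in that direction. They were Alg12, Syvn1, Hnrnpa3 (log2 difference -0.27) and Xlr3c (-0.30), the last below the median level. Among the 10, Alg12, a mannosyltransferase of N-glycan synthesis, differed by -0.40, Syvn1 by -0.32, Canx, the membrane-bound lectin chaperone calnexin, by -0.09 (-0.029 without rapamycin replicate 4) and Pdia6, a disulfide isomerase, by -0.04. Ero1b, an oxidase of disulfide isomerases, differed by 0.09 and Derl3, of the degradation machinery, by 0.12. The 5 members with an ERSE had log2 differences between -0.71 and -0.07. Herpud1 and Dnajb11, with an exact ERSE-II alone, had -0.23 and -0.09, and Sdf2l1, with neither form, had -0.12.

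A measure that the choice of genes did not use is how the members varied between mice of the same group. After the mean of its own group was taken from each array, Hspa5 deviated by 0.11, 0.11, 0.07, -0.44 and 0.14 in rapamycin replicates 1 to 5, and by -0.06, 0.08, -0.12, 0.16 and -0.07 in untreated replicates 1 to 5. The mean of the other 9 members deviated by -0.01, 0.04, -0.0019, -0.08 and 0.06 in rapamycin replicates 1 to 5, and by -0.10, 0.06, -0.04, 0.09 and -0.0041 in untreated replicates 1 to 5. Arrays high in Hspa5 for their group were mostly high in its partners. Pearson's r was 0.75 and Spearman's rho 0.78 over the 10 arrays, and r was 0.76 without rapamycin replicate 4 and untreated replicate 3, the arrays farthest from the median of Hspa5, and 0.82 without rapamycin replicate 4 alone. These are descriptions, with no p, of arrays that share a normalization.

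**Figure D4:**
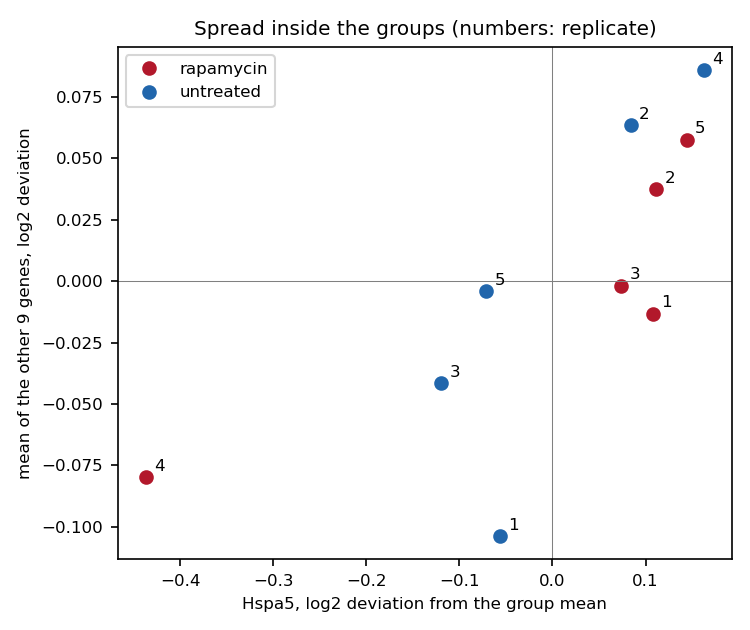
Deviation of Hspa5 (x axis) and of the mean of the other 9 members (y axis) from the mean of the array's own group, in log2 units, for 5 rapamycin (red) and 5 untreated (blue) arrays; numbers are replicates. The points run from lower left to upper right, with rapamycin replicate 4 at -0.44 for Hspa5 and -0.08 for the others.

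The same arrays were often low or high for several members. Untreated replicate 1 was the lowest untreated array for 7 of the 10 members, and untreated replicate 2 or 4 was the highest for 9. Rapamycin replicate 4 was the lowest rapamycin array for 6 members, and the lowest of all arrays for 5. Over the 45 pairs of members the median r of these deviations was 0.45, and 19 pairs (42.2%) were above 0.5. Over all pairs of the 11090 genes above the median level the median r was 0.01 and 10.1% of pairs were above 0.5. Those genes were not matched to the members in signal level, and the part of level in these shares was not tested. Without rapamycin replicate 4 the median over members was 0.41, and 20 pairs were above 0.5. The highest r was that of Hspa5 and Dnajc3, 0.87, which was 0.51 without rapamycin replicate 4, and the lowest that of Hsp90b1 and Manf, -0.13. With Hspa5, r was 0.70 for Herpud1, 0.66 for Hyou1, 0.65 for Dnajb11, 0.50 for Creld2, 0.43 for Sdf2l1, 0.41 for Calr, 0.31 for Hsp90b1 and 0.06 for Manf, beside a median of -0.07 and an upper decile of 0.48 over 22179 genes.

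**Figure D5:**
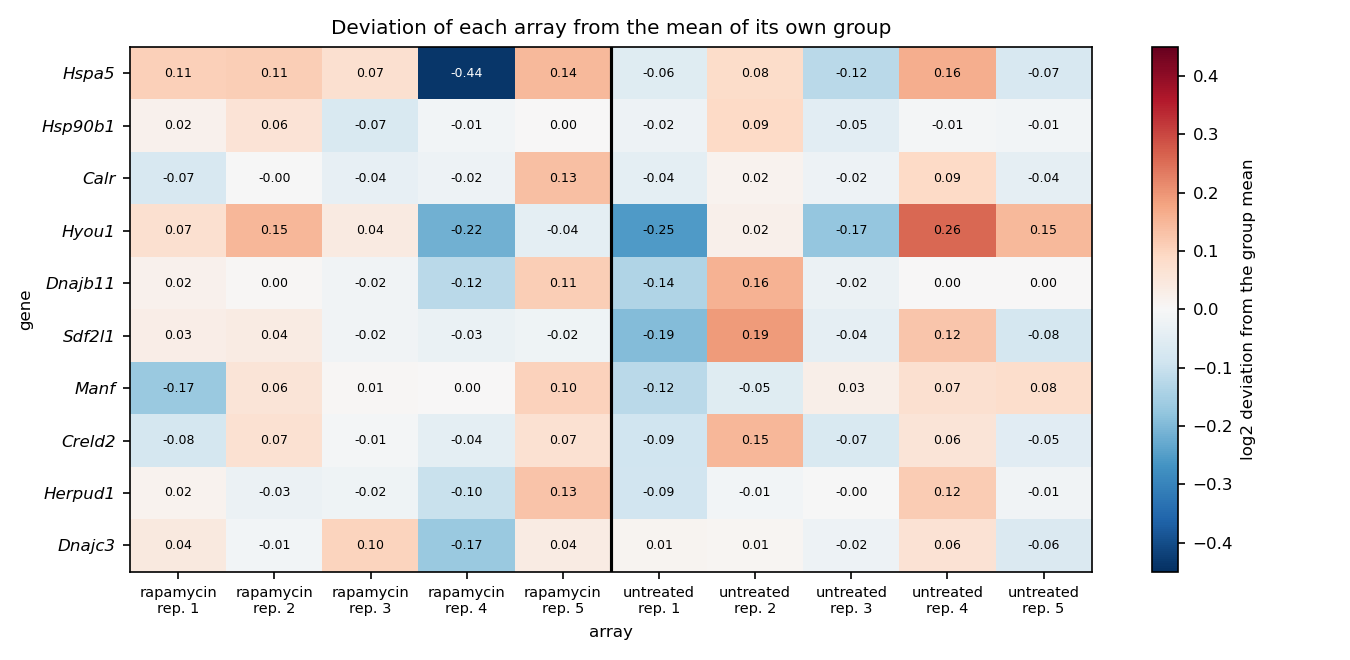
Deviation of each member (rows) on each array (columns, 5 rapamycin left of 5 untreated) from the mean of its own group, in log2 units, with the value printed in each cell. Rapamycin replicate 4 is lowest for Hspa5 (-0.44) and untreated replicate 1 is low for Hyou1, Sdf2l1, Dnajb11 and Manf.

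Outside the members, the 8 genes above the median level whose deviations followed Hspa5 most closely over the 10 arrays were Slc38a10 (r = 0.98), Pkd1 (0.96), Ccnl2 (0.96), Zfp574 (0.94), Son (0.94), Rin1 (0.94), Ap3d1 (0.93) and Arf1 (0.93). They were picked for the highest r among the genes above the median level, and none stood on a list of ER genes. Without the arrays farthest from the median of Hspa5, r lay between 0.57 for Arf1 and 0.94 for Slc38a10. Their log2 differences between the groups were between -0.24 for Ccnl2 and -0.02 for Rin1, with 0 of 8 called in limma and 1, Ccnl2, at an unadjusted p under 0.05. Without rapamycin replicate 4 these differences ran from -0.13 for Ccnl2 to 0.11 for Arf1. Slc38a10, Ccnl2 and Arf1 had a dimmer probe set each, which differed by 0.02, 0.05 and 0.12, with the sign opposite to that of the brighter one.

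Markers of the sorted cells and of other marrow cells are given beside these values. All 14 measured plasma cell markers were above the median gene, and their summed linear signal was 52346 to 60043 in the rapamycin arrays and 52924 to 57404 in the untreated arrays. Sdc1, the surface proteoglycan CD138, was at 10.07 ± 0.26 with rapamycin and 10.01 ± 0.11 untreated (SD, n = 5 each), a log2 difference of 0.06, or 0.16 without rapamycin replicate 4. Prdm1, whose reporter was the basis of the sort, was at 10.12 ± 0.06 with rapamycin and 9.71 ± 0.23 untreated, with a log2 difference of 0.41 (adjusted p = 0.117 in limma). Of mature B cell markers 10 of 14 were above the median gene, summing to 7312 to 8441 with rapamycin and 7409 to 8609 untreated. The brightest were H2-Ab1 and Cd79b, with means of 11.74 and 10.86 over all arrays. Pax5, which plasma cells silence, was below the median gene, at 4.80 ± 0.12 with rapamycin and 4.98 ± 0.07 untreated. Ptprc was lower with rapamycin by 0.35 on the log2 scale (adjusted p = 0.162 in limma), with groups that did not overlap. Directions on the mature B cell list were mixed, with a median log2 difference of -0.12 and 0 of 14 called in limma. Cr2 and H2-Aa differed by 0.37 and 0.23, and Bach2 and Cd22 by -0.39 and -0.44. The groups parted on the sums of 2 lists, those of eosinophils and basophils (5 of 13 above the median gene, 7802 to 8618 with rapamycin and 5450 to 7443 untreated) and of monocytes, macrophages and dendritic cells (5 of 15, 3627 to 4236 with rapamycin and 2728 to 3468 untreated). These sums rested on Prg2 and Ly6c2, which rose by 0.42 and 0.45 on the log2 scale (adjusted p = 0.0473 and 0.0439 in limma). Rnase2a of the first list fell by 1.28 (adjusted p = 0.0347 in limma). Levels of the other markers were mixed. Epx and Csf1r were at 4.35 ± 0.18 and 5.19 ± 0.08 with rapamycin and 4.49 ± 0.29 and 5.12 ± 0.14 untreated. The second brightest of each list, Il5ra and Cd68, were at 7.48 ± 0.27 and 7.84 ± 0.24 with rapamycin and 7.31 ± 0.28 and 8.17 ± 0.09 untreated. For neutrophils and precursors (13 of 16) the sums were 1863 to 2999 with rapamycin and 1379 to 2405 untreated. All markers of that list but Ctsg (-0.16) had a log2 difference above 0, with a median of 0.16 and 0 called in limma. For T and NK cells (5 of 11) the sums were 419 to 515 with rapamycin and 375 to 455 untreated. For erythroid cells and megakaryocytes (2 of 7) they were 266 to 309 with rapamycin and 241 to 298 untreated, and for stromal and endothelial cells (7 of 12) 680 to 731 with rapamycin and 675 to 771 untreated. The part of these cells in the differences of the members was not tested.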

How the data were processed

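Sorted plasma cells of 5 rapamycin-treated and 5 untreated mice gave RNA that was biotin-labelled with a kit of Affymetrix, per the labels' protocols. The log2 signals were deposited as the authors made them, with RMA, per the submitters' processing notes, which state no version. RMA sets arrays to a common distribution, so a shift of all transcripts is not seen. The whole table has 41345 rows; the authors' filtered table, whose rule was not given, keeps 12280 of them with equal values (tolerance 1e-06) and holds 3 of the 10 members.

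GEO's platform annotation named 23521 probe sets with 1 symbol and 1820 with several, and 16004 are unnamed here. The brightest probe set over the 10 arrays stood for each of 22180 genes. Groups and replicate numbers came from the sample titles. Differences are rapamycin minus untreated. The test was that of limma 3.58.1, run in R 4.3.3 (lmFit, eBayes with intensity trend, two-sided, no covariate, no filter), with Benjamini-Hochberg adjustment over all genes and a call at an adjusted p under 0.05; SE is its moderated standard error. The members and lists were chosen with earlier results of these data known. Named genes were the members, the 4 genes of smallest p on each list, 7 regulators and the 8 genes most like Hspa5 inside groups. Of the markers, the called ones are named, and the brightest of some lists only. Hspa9, Trap1, Alg12, Canx, Pdia6, Ero1b, Derl3 and the other markers named were added after their values were seen.

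The fit and the motif search were tested on simulated data with known answers. Promoter sequences are from RefSeq, GRCm38.p6; the arrays' files name no genome build. The alternatives changed the normalization, the probe set of a gene, the filter, the table, array weights, the variance model and a replicate block, or left out each array; removal of X- and Y-linked genes was added after the data were seen. The number of arrays limits the precision. Plots were made in Python 3.11.15 with matplotlib 3.10.9.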

Additional observations from a re-analysis of the deposited data

Results flagged for a closer look

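On the named genes and members, 100 groups of 5 arrays were searched for an array whose gap to the nearest other exceeds 0.71 of the group's range, and 15 were found. Chance would give about 5 in 100 if the groups were independent. They were not, since 8 of the genes were chosen for following Hspa5 on these arrays, so no excess is read from the count. Of the 15, 9 were rapamycin replicate 4. It was low for Hspa5 at 10.34, beside 10.85 to 10.92 on the other rapamycin arrays. It was also low for Hspa1b at 4.62, for Slc38a10 at 7.32, Ccnl2 at 7.80, Son at 8.19, Rin1 at 5.35, Ap3d1 at 8.60 and Arf1 at 10.68, the last 6 being genes named for following Hspa5 across these same arrays, and it was high for Mzb1 at 12.11.

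Untreated replicate 2 was high for Hsp90b1 at 13.17, beside 13.04 to 13.07 on the other untreated arrays, and for Dnajc1 at 8.54, Edem2 at 11.43 and Lman1 at 10.94. Untreated replicate 1 was low for Dnajb9 at 11.74, beside 12.01 to 12.04, and untreated replicate 3 was low for Clgn at 4.44, beside 4.74 to 4.82.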

How the results depend on the processing

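The log2 difference of Hspa5 was -0.67 with array weights, -0.71 with arrays shifted to a common median and -0.74 with quantile normalization repeated. The other alternatives of model, probe set, filter and table could not move it. Hspa5 has 1 probe set, its values were the same in each, and the groups are equal in size. With each array left out in turn the difference lay between -0.74 and -0.60. The median of the members ranged from -0.17 to -0.13 under the alternatives and from -0.16 to -0.11 with an array left out. For the members without overlap the count was 2 with arrays shifted to a common median and 4 with quantile normalization repeated. Counts of called genes moved more. Genes higher with rapamycin numbered 14 with a replicate block, 57 among genes above the median level and 71 in the filtered table. In the last 2 of these, fewer genes were tested and the variance model was fitted anew on them. When an array was left out the number was 15 to 30, the lowest without rapamycin replicate 1 or untreated replicate 3. Genes lower numbered 12 with array weights, 13 among genes above the median level, 36 in the filtered table, 10 with quantile normalization repeated, 3 without X- and Y-linked genes, and 4 to 9 when an array was left out. The sample titles number the replicates without saying whether the numbers pair mice. Deviations of same-numbered arrays correlated at -0.07 to 0.05, and 1 of 5 rapamycin arrays correlated best with its own number. The replicate block gave 7 lower genes. These values show no strong likeness by number, and cannot show whether mice were paired. The 1 ER gene outside the members called lower in the filtered table was Ddit3, against 0 otherwise. The correlation of Hspa5 with the other members inside groups was 0.83 on untreated arrays alone, 0.88 on rapamycin arrays alone, and 0.71 to 0.86 with an array left out, the highest without untreated replicate 1. Members with ERSE-II numbered 2, against 5 with the ERSE. Small differences that changed sign were those of the member Manf (-0.043 to 0.029 with an array left out), Atf6 (1.86e-04 with array weights, -0.066 to 0.019 with an array left out), Arf1 (0.0045 as a mean of probe sets, -0.18 to 0.11), Slc38a10 (0.020 in the filtered table, where only its dimmer probe set is kept), Xbp1 (-0.033 with quantile normalization repeated), and, with an array left out, Ap3d1 (-0.15 to 0.018), Pkd1 (-0.095 to 0.039) and Rin1 (-0.039 to 0.039). The cause of these changes was not tested. Detection above background was not analysed here; Manf is the dimmest member.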
